A study of Mus musculus with 10 samples.

Results

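Bone and osteoclast genes were followed across 10 one-colour arrays of mouse cochlear RNA, in 2 strains with and without noise. Members were all probe sets whose platform gene symbol was one of 8 listed genes, Ibsp, Spp1, Bglap, Sparc, Ctsk, Acp5, Alpl and Phex. Of these, 6 genes were found, with 7 probe sets, among 8252 genes and 10855 probe sets that carry a single gene symbol. Spp1 and Bglap are not analysed here. The list was drawn up as a gauge of otic capsule, the bony shell of the inner ear, in the sampled tissue.

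Each array carried RNA pooled from 8 female mice aged 10 weeks, so an array is a pool and not an animal. Mice were of strain 129X1/SvJ, known for resistance to noise damage, or of B6.CAST, a strain with a C57BL/6J background. The groups were 129X1/SvJ control (3 arrays), 129X1/SvJ noise (3), B6.CAST control (2) and B6.CAST noise (2). Noise was an octave band at 10 kHz and 105 dB SPL given for 1 h, with death 6 h later, and controls spent a sham session in the same chamber. Per the labels the tissue was cochlea, taken as dissected membranous labyrinth. Values below are the deposited linear signals per probe set. Differences are on the log2(signal + 16) scale after quantile normalisation, with standard errors and adjusted p-values from limma and a threshold of 0.05, over 8695 probe sets. This scale understates changes of dim genes, and in such bulk RNA fewer cells of a type cannot be told apart from less RNA per cell.

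Bone is laid down by osteoblasts, which secrete a collagen matrix with acidic mineral-binding glycoproteins and drive mineral deposition at their surface. It is removed by osteoclasts, multinucleate cells of the monocyte lineage that acidify the bone surface and digest the matrix. The cochlea lies within the otic capsule, which in the adult is turned over very little and from which the membranous labyrinth is dissected.

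The known cochlear gene Coch, which encodes cochlin of the spiral ligament, had signals from 12604 to 20801 over the 10 arrays. The array 129X1/SvJ noise 1 stood apart: it correlated at 0.910 on average with the others, which gave 0.943 to 0.955. RNA quality was gauged by the Gapdh control probe sets, 3′ signal over 5′ signal. That ratio reached 29.2 for 129X1/SvJ control 2 and 6.94 for B6.CAST noise 1, and was 0.790 to 1.40 on the others. The first control array of B6.CAST differed from the other control array of that strain in several of the genes below, and results that rest on it are given with and without it.

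Among the members, Ibsp and Acp5 varied most from array to array and shared a pattern, so the sequences at their start sites are shown with that of Sparc, which did not share it. They are 300 bases long, from 250 before to 50 after an annotated start, and were read from RefSeq on GRCm38.p6, in which all 6 measured members were matched with 9 such windows. Capitals mark matches, on either strand, to the TATA motif with the letters TATAAA, the CCAAT motif, the RUNX motif (TGTGGT or TGCGGT, the core bound by the osteoblast factor RUNX2) or the M-box (TCATGTG or TCACGTG, bound by the osteoclast factor MITF). The first is at chr5:104299037-104299336 on the plus strand, the second at chr9:22130549-22130848 and the third at chr9:22131816-22132115, both on the minus strand, and the fourth at chr11:55420031-55420330 on the minus strand.
Ibsp: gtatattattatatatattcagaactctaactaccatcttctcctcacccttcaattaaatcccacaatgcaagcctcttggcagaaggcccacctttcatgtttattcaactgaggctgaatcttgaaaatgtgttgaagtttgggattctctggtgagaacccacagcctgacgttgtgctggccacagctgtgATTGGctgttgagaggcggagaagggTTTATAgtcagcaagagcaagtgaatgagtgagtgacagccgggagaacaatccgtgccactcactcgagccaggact
Acp5, the third start: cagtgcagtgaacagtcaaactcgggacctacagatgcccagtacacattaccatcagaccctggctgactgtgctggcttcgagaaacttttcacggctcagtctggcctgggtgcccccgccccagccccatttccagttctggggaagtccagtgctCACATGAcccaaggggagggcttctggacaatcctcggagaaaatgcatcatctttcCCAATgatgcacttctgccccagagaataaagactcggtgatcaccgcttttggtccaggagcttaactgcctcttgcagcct
Acp5, the second start: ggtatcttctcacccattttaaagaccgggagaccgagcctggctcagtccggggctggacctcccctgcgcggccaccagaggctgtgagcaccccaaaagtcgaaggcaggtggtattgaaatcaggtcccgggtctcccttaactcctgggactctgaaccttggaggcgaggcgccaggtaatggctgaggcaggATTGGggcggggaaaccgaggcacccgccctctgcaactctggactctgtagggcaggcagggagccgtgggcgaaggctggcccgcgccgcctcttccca
Sparc: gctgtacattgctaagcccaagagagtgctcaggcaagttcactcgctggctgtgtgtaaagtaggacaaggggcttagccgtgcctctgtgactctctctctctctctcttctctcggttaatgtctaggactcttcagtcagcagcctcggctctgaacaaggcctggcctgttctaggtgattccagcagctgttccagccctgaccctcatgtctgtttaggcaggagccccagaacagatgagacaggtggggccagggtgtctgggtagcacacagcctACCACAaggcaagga
The Ibsp window held a TATA match on the opposite strand at -28 and a CCAAT match on the opposite strand at -54, counted from the start site. Of the 3 Acp5 windows, the printed pair held a CCAAT match at -33 or -51, and the window of the third start also held an M-box match at -90. The Sparc window held 1 RUNX match at 36. No matches overlapped each other in these windows. Over 32851 windows of the same length, 37.4% held a CCAAT match, 22.4% a RUNX match, 13.6% a TATA match and 7.40% an M-box match. These matches describe letters in a window and show no binding, and the arrays do not tell which Acp5 start was used.

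Ibsp encodes bone sialoprotein, an acidic glycoprotein of mineralised matrix made by osteoblasts and osteocytes. Its signal was 205.9, 359.7 and 199.3 on the control arrays 1 to 3 of 129X1/SvJ and 412.8, 249.4 and 342.3 on the noise arrays. In B6.CAST it was 342.9 and 42.8 on the control arrays and 41.1 and 66.4 on the noise arrays. Thus 3 of the 4 B6.CAST arrays lay below all 6 arrays of 129X1/SvJ, and the first B6.CAST control array lay among them. The share of all probe sets with such a pattern was not counted, so it is given as a description. Group means ran from 335 ± 82.0 (SD, n = 3) in noise-exposed 129X1/SvJ through 255 ± 90.8 (n = 3) in its controls and 193 ± 212 (n = 2) in B6.CAST controls to 53.8 ± 17.9 (n = 2) in noise-exposed B6.CAST. Neighbours in that order overlapped. The standard deviation of its log2 value over the 10 arrays was 1.09, against a median of 0.30 over the tested probe sets, and 98.5% of these varied less.

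A second probe set of Ibsp was dim and did not pass the filter, which removed the 30% of probe sets with the lowest mean log2 value. It read 6.2, 37.8 and 16.8 on 129X1/SvJ control arrays, 190.7, 68.5 and 22.5 on its noise arrays, 55.1 and 3.6 on B6.CAST control arrays and 62.2 and 51.1 on B6.CAST noise arrays. The pair of probe sets shared a low value on the second B6.CAST control array. They differed on the B6.CAST noise arrays, where the dim probe set was above all 3 control arrays of 129X1/SvJ. When no filter was applied it differed by -0.16 ± 0.67 between noise-exposed strains (adjusted p = 0.98 in limma), where the brighter probe set gave -2.27. The low Ibsp values in B6.CAST noise arrays therefore rest on 1 probe set.

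Sparc encodes osteonectin, a collagen-binding matrix glycoprotein that is abundant in bone and is also made by many connective tissues. Its signal was 6715.4, 7346.8 and 6329.5 on 129X1/SvJ control arrays and 4375.8, 6871.6 and 7187.3 on its noise arrays. It was 7534.7 and 9071.4 on B6.CAST control arrays and 9705.2 and 9257.4 on B6.CAST noise arrays. By deposited signal all 4 B6.CAST arrays were above all 6 arrays of 129X1/SvJ. After normalisation the strains overlapped, since B6.CAST control 1 deviated by 0.02 from the mean of the arrays and 129X1/SvJ control 2 by 0.10. The lowest array of all was the first noise array of 129X1/SvJ, the array that stood apart.

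Alpl encodes tissue-nonspecific alkaline phosphatase, which frees phosphate for mineral deposition. Its signal was 312.3, 374.2 and 337.1 on 129X1/SvJ control arrays, 373.8, 204.5 and 240.8 on its noise arrays, 247.3 and 333.2 on B6.CAST control arrays, and 237.2 and 241.7 on B6.CAST noise arrays. Its highest array was only 1.83 times its lowest, and the strains overlapped both in control and in noise-exposed mice. Phex encodes an endopeptidase of osteoblasts and osteocytes that limits the phosphate-wasting hormone FGF23. It did not pass the filter, with signals from 8.7 to 51.8 and the highest on the first noise array of 129X1/SvJ.

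Acp5 encodes tartrate-resistant acid phosphatase, the classic enzyme marker of osteoclasts, which some macrophages also make. Its signal was 86.9, 212.5 and 109.1 on 129X1/SvJ control arrays and 239.2, 164.0 and 147.5 on its noise arrays. In B6.CAST it was 359.2 and 45.9 on the control arrays and 78.6 and 75.6 on the noise arrays. As for Ibsp, 3 of the 4 B6.CAST arrays were below every array of 129X1/SvJ, while the first B6.CAST control array was here the highest of all 10. Here too the share of all probe sets with such a pattern was not counted. Group means were 203 ± 222 (SD, n = 2) in B6.CAST controls, 184 ± 48.9 (n = 3) in noise-exposed 129X1/SvJ, 136 ± 67.0 (n = 3) in its controls and 77.1 ± 2.12 (n = 2) in noise-exposed B6.CAST. Each neighbour in this order overlapped the next, except that the last group lay below the one before it.

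Ctsk encodes cathepsin K, the protease with which osteoclasts digest bone collagen. Its signal was 334.5, 632.2 and 553.6 on 129X1/SvJ control arrays and 489.0, 475.8 and 464.6 on its noise arrays. It was 688.5 and 427.0 on B6.CAST control arrays and 506.4 and 530.9 on B6.CAST noise arrays. The first B6.CAST control array was again the highest of all 10, but the other B6.CAST arrays lay within the range of 129X1/SvJ. The standard deviation of the log2 value was 0.28 for Ctsk, 0.30 for Alpl and 0.32 for Sparc, near the median of all tested probe sets, and 0.74 for Acp5, above 94.3% of them.

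**Figure D1:**
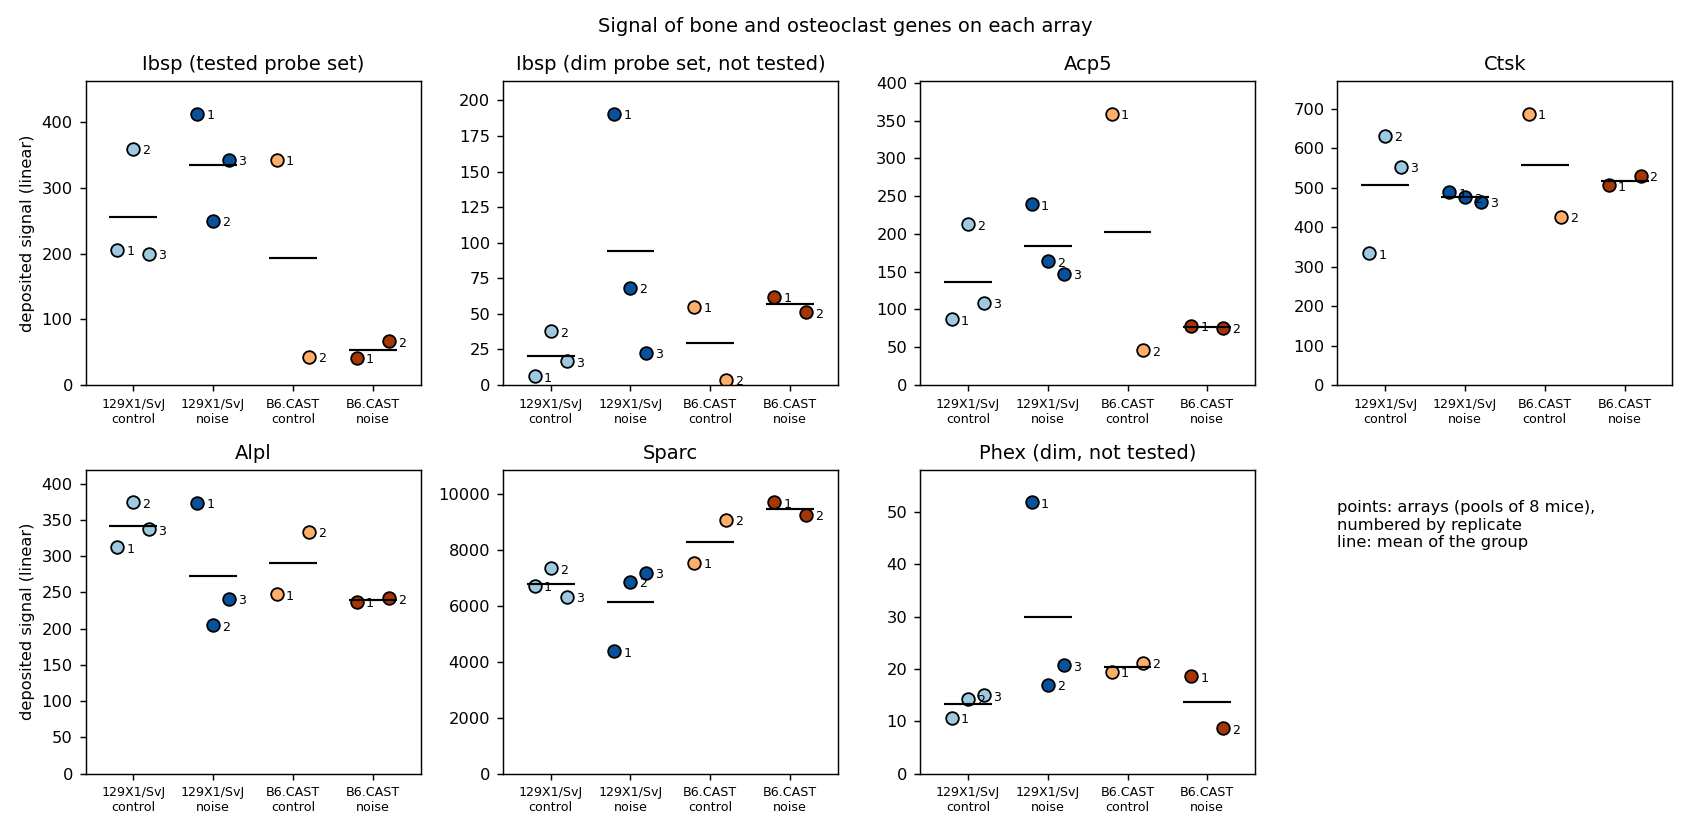
Deposited linear signal (y axis, from 0) of the 7 probe sets on each array, by group (x axis), with points numbered by replicate and a line at the group mean. Ibsp and Acp5 are low on the second B6.CAST control array and on both B6.CAST noise arrays, at 41.1 to 66.4 and 45.9 to 78.6, and Sparc is highest on the B6.CAST arrays.

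**Figure D2:**
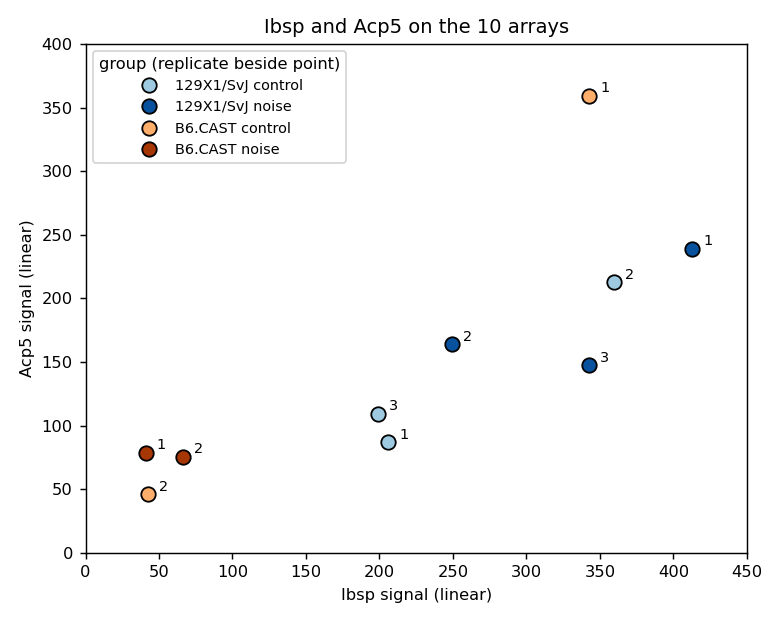
Signal of Acp5 (y axis) against signal of Ibsp (x axis), both linear, with 1 point for each of the 10 arrays, coloured by group and numbered by replicate. The 3 arrays in the lower left corner belong to B6.CAST, and the first B6.CAST control array (342.9 for Ibsp, 359.2 for Acp5) lies with the high arrays.

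The first comparison asked whether noise changed these genes in 129X1/SvJ. None of the 5 tested member probe sets passed in limma, where 0.506% of all probe sets did, and none had an unadjusted p under 0.05. Ibsp differed by 0.36 ± 0.50 (SE, n = 3 noise and 3 control arrays) and Acp5 by 0.35 ± 0.51, with 95% intervals from -0.73 to 1.45 and from -0.78 to 1.48. Alpl differed by -0.38 ± 0.24, Sparc by -0.19 ± 0.18 and Ctsk by -0.04 ± 0.24. For all 5 the control and noise arrays overlapped, where 15.8% of tested probe sets did not (overlap is counted on deposited signals throughout). The intervals of Ibsp and Acp5 are wide in both directions, and those of Ctsk (-0.56 to 0.48) and Sparc (-0.58 to 0.20) are narrower. Without the first noise array, Sparc differed by 0.03, so its negative sign came with that array. With 1 array left out, Ibsp ranged from 0.21 to 0.61 and Acp5 from 0.13 to 0.70. Both were highest without the second control array, whose Gapdh ratio was 29.2, and Ctsk was then at 0.13.

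In B6.CAST, 0 of 5 members passed in limma, against 0.046% of all probe sets, and none had an unadjusted p under 0.05. Ibsp differed by -1.12 ± 0.61 (SE, n = 2 and 2 arrays; 95% interval -2.46 to 0.21) and Acp5 by -0.74 ± 0.63. Without the first B6.CAST control array the differences were 0.09 for Ibsp, 0.47 for Acp5 and 0.24 for Ctsk, and without the second they were -2.32, -1.93 and -0.40, so a single control pool set both sign and size. Sparc differed by 0.20 ± 0.22 and was higher on each noise array than on each control array, and Alpl by -0.24 ± 0.29 and was lower on each noise array by deposited signal, but not after normalisation (deviations of -0.15 and -0.28 with noise, -0.23 and 0.28 in controls). With 2 arrays a group 28.6% of tested probe sets did not overlap, so a count of 2 in 5 members is not read as a result about them. Without the second B6.CAST control array Alpl differed by 0.02. The dim probe set of Ibsp, fitted with no filter, went the other way from the brighter one, at 1.02 ± 0.73 for noise in B6.CAST.

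The difference between the strains' noise effects passed for 0 of 5 members in limma, as for 0.0% of all probe sets, of which 258 had an unadjusted p under 0.05. It was -1.48 ± 0.79 for Ibsp (95% interval -3.21 to 0.24) and -1.09 ± 0.81 for Acp5 (-2.87 to 0.70), taken as B6.CAST minus 129X1/SvJ. Without the first B6.CAST control array these became -0.27 and 0.12. For Ctsk, Alpl and Sparc the difference was -0.04 ± 0.38, 0.14 ± 0.37 and 0.39 ± 0.28. The dim probe set of Ibsp, fitted with no filter, was at -0.24 ± 0.94. The data do not show that noise acted on these genes differently in the 2 strains, and the intervals of Ibsp and Acp5 are too wide to show that it acted alike.

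Between unexposed strains 0 of 5 members passed in limma, against 0.920% of all probe sets, and none had an unadjusted p under 0.05. Ibsp was at -0.79 ± 0.56 (SE, n = 2 and 3 arrays, B6.CAST minus 129X1/SvJ), Acp5 at 0.11 ± 0.57, Ctsk at 0.18 ± 0.27, Alpl at -0.23 ± 0.26 and Sparc at 0.23 ± 0.20. Without the first B6.CAST control array Ibsp was at -2.00 and Acp5 at -1.09, and without the second they were at 0.42 and 1.31. Neither passed in any of these fits. By deposited signal Sparc alone did not overlap between the groups, as 29.1% of tested probe sets did not, and after normalisation it did overlap.

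Between noise-exposed strains Ibsp showed the largest difference of any member in any comparison, at -2.27 ± 0.56 (SE, n = 2 B6.CAST and 3 129X1/SvJ arrays; 95% interval -3.49 to -1.05), or 4.82-fold lower in B6.CAST. It did not pass (unadjusted p = 0.0017, adjusted p = 0.083 in limma), and neither did any other of the 5 members, against 1.45% of all probe sets. Its adjusted p ranged from 0.0074 to 0.49 over the 20 alternatives run, and 4 of these called it: the fit of the noise arrays alone (-2.22, adjusted p = 0.027), the fits without the first or the second B6.CAST control array (-2.28 and -2.26, adjusted p = 0.0091 and 0.0074), and the fit without B6.CAST control 1 and 129X1/SvJ noise 1 together (-2.16, adjusted p = 0.023). The difference itself stayed between -2.56 and -1.71. The other 16 alternatives, among them the fit with no filter (adjusted p = 0.15 in limma), did not call Ibsp. All 4 that called it left out 1 or both B6.CAST control arrays, so the spread between these (342.9 and 42.8) did not enter. Of the 2 B6.CAST noise arrays, the first had a Gapdh ratio of 6.94 and an Ibsp signal of 41.1. The B6.CAST control arrays do not enter this contrast and bear on it only through the shared spread and scaling. Sparc was at 0.62 ± 0.20 (95% interval 0.18 to 1.06, unadjusted p = 0.0096, adjusted p = 0.23) and Acp5 at -0.97 ± 0.57 (adjusted p = 0.64). Ctsk, at 0.14 ± 0.27, and Alpl, at -0.09 ± 0.26, had intervals from -0.45 to 0.72 and from -0.66 to 0.49. For 4 of 5 members the groups did not overlap, where 25.3% of tested probe sets did not: Ibsp and Acp5 were lower and Sparc and Ctsk higher in B6.CAST. The members thus did not move in 1 direction, and their median was -0.09 against 0.02 over all tested probe sets. These strain comparisons share their arrays with the noise comparisons and are not independent of them.

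**Figure D3:**
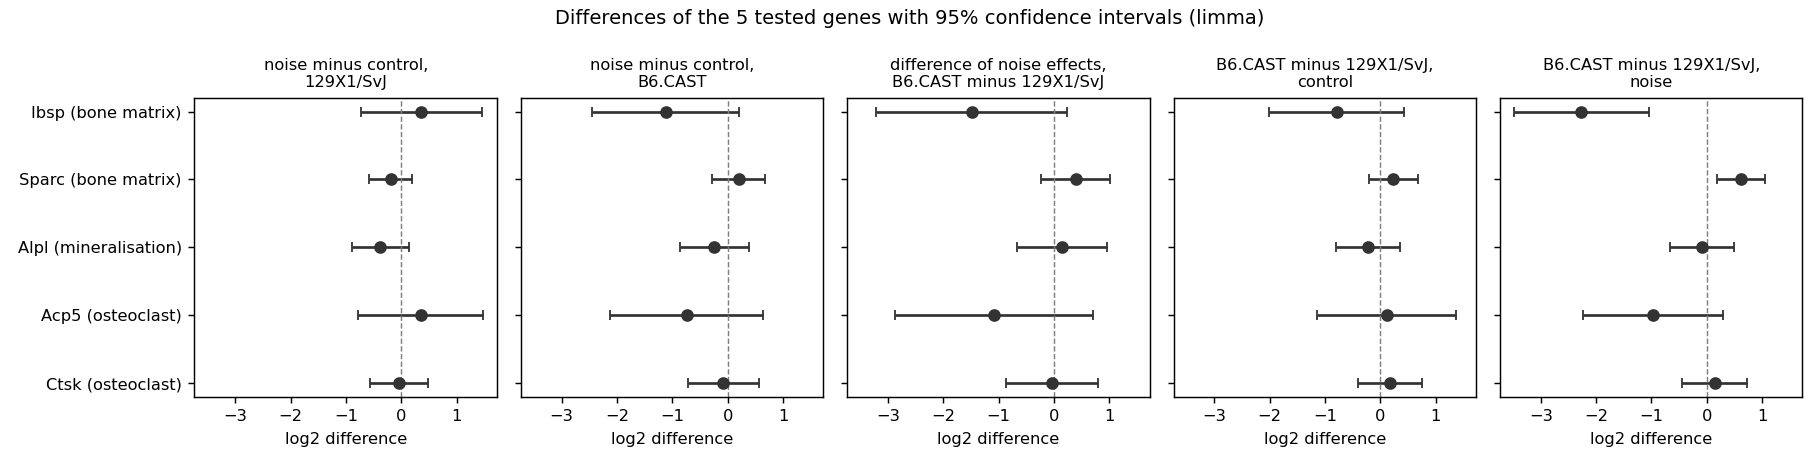
Log2 differences (x axis) of the 5 tested genes (y axis) in the 5 comparisons, with 95% confidence intervals from limma. All intervals include 0 except those of Ibsp (-3.49 to -1.05) and Sparc (0.18 to 1.06) between noise-exposed strains, and neither gene passed after adjustment.

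Other genes of bone formation were measured from a wider list. Of 52 further bone matrix and osteoblast genes, 34 were on the array and 26 were tested, and 0 passed in limma in any of the 5 comparisons, with 6, 2, 1, 3 and 6 at an unadjusted p under 0.05 in the order above, where 11.5%, 2.10%, 2.97%, 11.1% and 10.6% of all probe sets had one. Their median difference lay between -0.07 and 0.01, against -0.05 to 0.06 for all tested probe sets. Col1a2, a chain of type I collagen, the main bone collagen, had signals from 1349.0 to 1968.4. Col1a1, the other chain, read 286.9, 635.0 and 702.3 on 129X1/SvJ control arrays and 715.1, 358.0 and 411.1 on its noise arrays, and 577.9, 259.1, 290.2 and 330.1 on the B6.CAST arrays, control before noise. Col1a1 was thus lowest on the second B6.CAST control array but not set apart by strain. Both collagen genes are named here after their values were seen.

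Dmp1, an acidic matrix protein of osteocytes, is, like Ibsp, a protein of mineralised matrix. It read 310.4, 343.2 and 250.1 on 129X1/SvJ control arrays, 515.1, 337.2 and 303.1 on its noise arrays, 203.6 and 163.5 on B6.CAST control arrays and 171.4 and 222.7 on B6.CAST noise arrays. All 4 B6.CAST arrays were below all 6 of 129X1/SvJ. Dmp1 and Dcn are named because their p between strains was among the smallest of the list, so such separation goes with the choice. The share of all probe sets that separate the strains in this way was not counted, here or for Sparc. The strain difference of Dmp1 was -0.64 ± 0.26 in control mice (adjusted p = 0.38 in limma) and -0.86 ± 0.26 in noise-exposed mice (adjusted p = 0.20). Dcn, the collagen-binding proteoglycan decorin, was at -0.65 ± 0.16 and -0.59 ± 0.16 (adjusted p = 0.11 in each), with B6.CAST signals of 8184.7 to 9980.0 below 129X1/SvJ signals of 11761.4 to 15872.5. Other genes of the list went the other way. In control mice Serpinh1 was at 0.47 ± 0.19 and Ank at 0.44 ± 0.20 (adjusted p = 0.39 and 0.46 in limma). Of the 26 tested genes 13 were higher and 13 lower in B6.CAST between control strains, and 12 and 14 between noise-exposed strains. Kazald1, a secreted protein related to the IGF-binding proteins, was at -0.78 ± 0.16 with noise in 129X1/SvJ (adjusted p = 0.078).

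In noise-exposed mice Pth1r, the parathyroid hormone receptor, was at -0.96 ± 0.34 and Col5a2, a fibrillar collagen chain, at -0.79 ± 0.28 between strains (adjusted p = 0.29 and 0.30). Fgfr1, a growth factor receptor, differed with noise by 0.43 ± 0.16 in 129X1/SvJ mice and by 0.54 ± 0.20 in B6.CAST mice. The same differences were 0.44 ± 0.16 and 0.40 ± 0.20 for Mgp, an inhibitor of mineralisation. None of these 4 genes passed (adjusted p from 0.29 to 1.00), and they are named because their p was among the smallest of the list. Atf4 had a smaller p than Fgfr1 and Mgp for noise in 129X1/SvJ. It was at 0.34 ± 0.10 there and did not pass either (adjusted p = 0.27 in limma).

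Of 36 further osteoclast genes, 23 were on the array and 19 were tested, and 1 passed in 1 comparison. That comparison was noise in 129X1/SvJ, where 0.506% of all probe sets passed. An unadjusted p under 0.05 in limma was found for 2, 0, 2, 3 and 2 of the 19 in the order of comparisons above. The shares of all probe sets were 11.5%, 2.10%, 2.97%, 11.1% and 10.6%. Mmp14, a membrane-bound collagenase that osteoclasts share with fibroblasts and endothelium, rose with noise in 129X1/SvJ by 0.83 ± 0.15 (adjusted p = 0.032 in limma), from signals of 970.4, 800.9 and 785.5 to 1691.5, 1406.6 and 1359.2. The call held in 5 of 20 alternatives (0.66 to 0.92, adjusted p from 0.018 to 0.32) and was lost when any single array other than the third noise array of 129X1/SvJ was left out. Its B6.CAST signals were 1198.9 and 1266.8 in controls and 1313.7 and 1320.0 after noise, and its difference of noise effects was -0.74 ± 0.23 (adjusted p = 1.00). Mmp9, a gelatinase of osteoclasts and neutrophils, read 200.5 and 38.9 on B6.CAST control arrays and 12.8 and 9.6 on B6.CAST noise arrays. In 129X1/SvJ it ranged from 17.2 to 431.3. Its strain difference in noise-exposed mice was -2.53 ± 0.90 (adjusted p = 0.29). In that comparison Spi1 was at -0.80 ± 0.34, but Traf6 at 0.32 ± 0.17 and Tcirg1 at 0.37 ± 0.21 (adjusted p = 0.41, 0.57 and 0.62 in limma). Of the 19 tested genes 11 were higher in B6.CAST there and 8 lower. Car2, carbonic anhydrase 2, which supplies acid to osteoclasts and is made widely in the cochlea, was at -0.34 ± 0.10 between control strains (adjusted p = 0.21), and Nfatc1, the master osteoclast transcription factor, at 0.59 ± 0.24 (adjusted p = 0.39). The calcitonin receptor Calcr and the integrin chain Itgb3, defining genes of mature osteoclasts, had signals no higher than 8.4 and 26.2 on any array and were not tested. Tnfrsf11a, the RANK receptor, ranged from 36.3 to 124.7. These 3 genes were chosen after their values were seen. The median difference of the list lay between 0.00 and 0.06 in the 5 comparisons.

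Markers of marrow cells were measured beside Ibsp and Acp5. Of 16 neutrophil and marrow myeloid genes, 13 were on the array and all 13 were tested, none was at 0 on any array, and the lowest signal was 7.9 (Ctsg). Their summed signal was 4221 to 23714 on 129X1/SvJ control arrays, 14156 to 39966 on its noise arrays, 23198 and 7396 on the first and second B6.CAST control arrays, and 3630 to 4057 on B6.CAST noise arrays. Of 16 erythroid genes 8 were on the array and tested, with summed signals of 13656 to 34061, 23170 to 38104, 10453 to 25864 and 7824 to 11369 in the same order of groups. Within B6.CAST both sums were highest on the first control array, as Ibsp and Acp5 were. With noise, all 13 neutrophil genes lay above 0 in 129X1/SvJ (median 0.82) and all 13 below 0 in B6.CAST (median -1.76), with 0 called in each by limma. An unadjusted p under 0.05 was found for 2 and 8 of them, where 11.5% and 2.10% of all probe sets had one. Single arrays set the size: the median in B6.CAST was -0.93 without control 1, with 11 of 12 genes below 0 and 0 at an unadjusted p under 0.05, and -2.86 without control 2. In 129X1/SvJ it was 0.32 without control 1 and 0.38 without noise 1. The neutrophil genes parted from Ibsp on the first control array of 129X1/SvJ. There the neutrophil list deviated by -1.17 from its mean over the arrays and Ibsp by 0.20. On that array Acp5 was low with the lists, at -0.44, and the erythroid list was at -0.51. On the third control array of 129X1/SvJ the neutrophil and erythroid lists were at 0.74 and 0.94, while Acp5 was at -0.27 and Ibsp at 0.14. The part of these cells in the Ibsp and Acp5 values was not tested.

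Between noise-exposed strains, where Ibsp differed most, 1 of 13 neutrophil genes (Chil3, a lectin of myeloid cells, -3.24 ± 0.60, adjusted p = 0.021) and 1 of 8 erythroid genes (Hbb-b2, a beta globin, -2.51 ± 0.53, adjusted p = 0.042) were lower in B6.CAST and passed in limma, with list medians of -2.60 and -1.55. Of all probe sets 1.45% passed in this comparison. An unadjusted p under 0.05 was found for 11 of 13 neutrophil and 5 of 8 erythroid genes, where 10.6% of all probe sets had one. Genes of a list share their arrays, so these counts are not independent. Over 20 alternatives the call held in 14 for Chil3 and in 8 for Hbb-b2, and it was lost for both without 129X1/SvJ noise 1 or either noise array of B6.CAST (adjusted p up to 0.22 and 0.44). For Hbb-b2 it was also lost without any other array of 129X1/SvJ. B-cell genes had a median of -0.48, macrophage genes of 0.10, cartilage genes of 0.12 and spiral ligament genes of 0.31, with no gene called. Skeletal muscle genes, another tissue that can adhere, had a median of -0.11 with 1 of 10 called, the myosin light chain gene Myl1 at -1.98 ± 0.35 (adjusted p = 0.017). That call held in 15 of 20 alternatives and was lost without 129X1/SvJ noise 2 or either B6.CAST noise array (adjusted p up to 0.22). Of 6 genes of the stria vascularis 1 was called, the melanocyte gene Dct at 0.78 ± 0.13 (adjusted p = 0.014), and of 8 genes of hair cells and the organ of Corti 0. The Dct call held in 14 of 20 alternatives and was lost without either B6.CAST noise array (adjusted p up to 0.18). In control mice the macrophage protease gene Ctss was at 1.01 ± 0.20 (adjusted p = 0.047), a call that held in 5 of 20 alternatives and was lost without any single array other than 129X1/SvJ noise 1 or noise 3 (adjusted p up to 0.31).

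**Figure D4:**
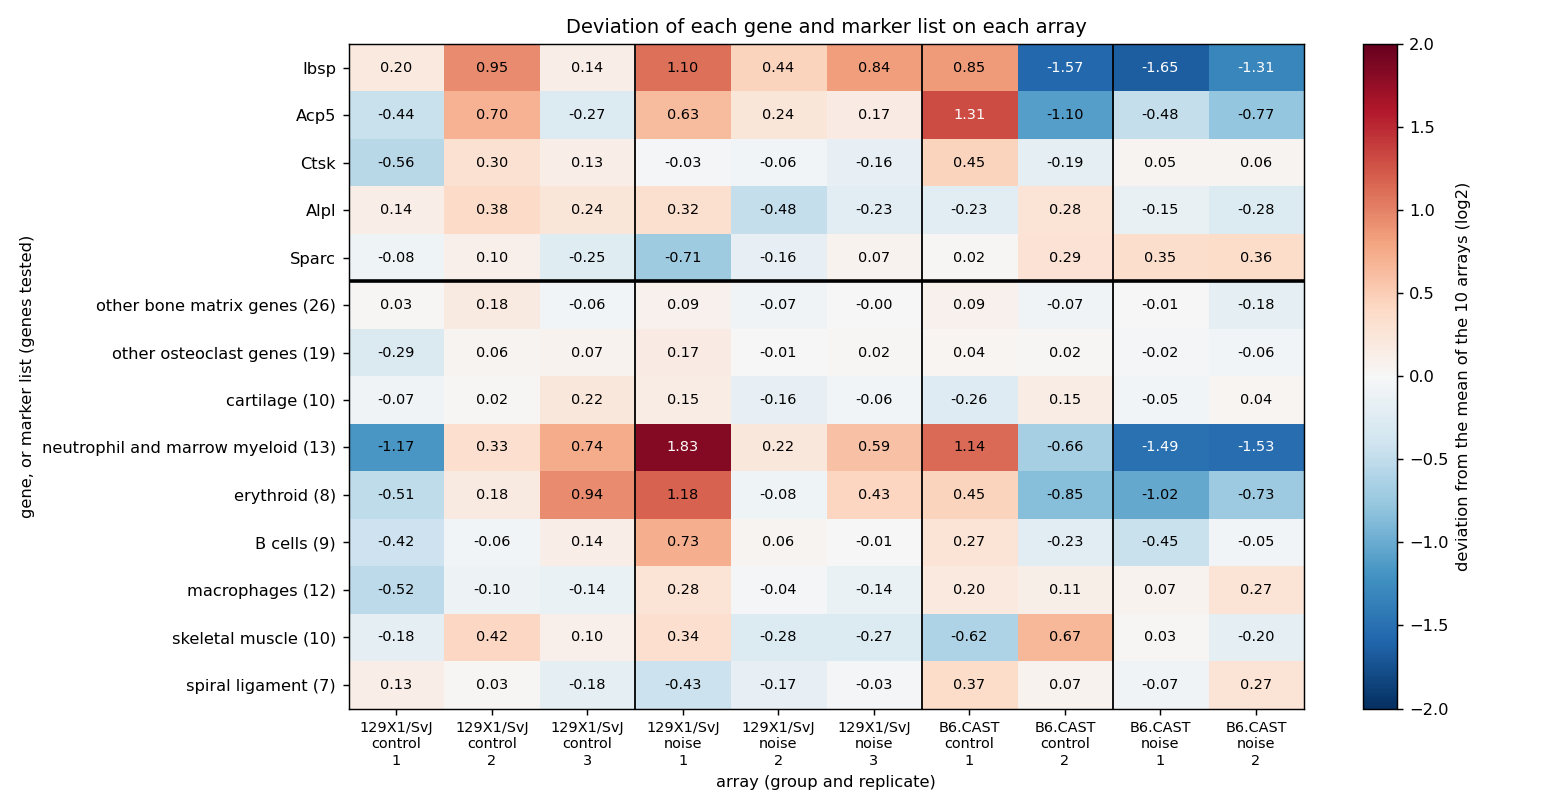
Deviation from the mean of the 10 arrays, in log2 units, on each array (columns). Rows above the line are the 5 tested genes, and rows below are means of marker lists, with the number of genes tested. The lists of the stria vascularis and of hair cells and the organ of Corti are not drawn. Ibsp, Acp5 and the neutrophil and erythroid lists are all negative on the second B6.CAST control array and on both noise arrays of that strain, while the mean of the 26 other bone matrix genes, a mean over genes that differ among themselves, lies between -0.18 and 0.18.

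The genes most like the members were found by correlation with the mean deviation of the 5 tested members over the 10 arrays, among 6499 genes. That mean is carried by Ibsp and Acp5, whose spread is the widest, so likeness to it is mostly likeness to these genes. Members did not all move together, since Ibsp and Sparc correlated at -0.70 and Acp5 and Alpl at -0.06 over the 10 arrays. The genes were Ctsg (Pearson r = 0.906), Mmp8 (0.899), Igha (0.885), Txndc17 (0.858), Myb (0.848) and Pclaf (0.842). Ctsg and Mmp8 encode neutrophil granule proteases, Igha an antibody heavy chain, Myb a factor of blood progenitors and Pclaf a protein of replicating DNA. Ctsg read 263.3 on the first B6.CAST control array and 10.7, 15.3 and 7.9 on the other B6.CAST arrays. Mmp8 was dim, with a median signal of 29.85, under the filter signal of 42.9, and passed the filter through its high arrays. The highest were 129X1/SvJ noise 1 (193.8) and B6.CAST control 1 (210.0), where Ibsp and Acp5 were high too. Its likeness is therefore not independent of the filter. After the group means were subtracted, the highest values belonged to Cops9 (0.980), Igha (0.948), Stard7 (0.947), Mmp8 (0.924), Apoe (0.915) and Gstk1 (0.910). Likeness to Ibsp alone was a choice made after seeing the data. Over the 10 arrays, without that subtraction, the highest were Igha (0.953), Hbb-b2 (0.940), Igkv6-23 (0.920), Ccr2 (0.915), Ckap4 (0.904) and Trim59 (0.898). After subtraction of the group means they were others: Thrsp (0.946), Cops9 (0.941), Lbr (0.937), Tfpi (0.935), Snap23 (0.931) and Dazap2 (0.921). Igha read 93.6, 93.9 and 103.0 on the same 3 B6.CAST arrays that were low in Ibsp and at least 200.2 on every other array. These correlations describe 10 arrays that share groups and pools.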

How the data were processed

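Per the labels, biotin-labelled cRNA was hybridised to one-colour arrays. The authors deposited linear signal intensities per probe set; the software is not given in the sources used here. The values had been scaled by array (mean after trimming 2% at each end, 500.268 to 500.304), and detection calls were not used here. Of 12488 probe sets, 66 are controls, 10855 have 1 gene, 396 have several and 1237 have none in the annotation used. Symbols follow RefSeq for GRCm38.p6, where 10839 were found by gene identifier. The third control and noise arrays of 129X1/SvJ carry a variant spelling of the strain and were kept in it.

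From the intensities, log2(intensity + 16) was quantile normalised. Controls and the 30% of probe sets with the lowest mean normalised log2 value (back-transformed, a signal of 42.9) were left out. All 10 arrays entered 1 linear model in limma 3.58.1 (R 4.3.3) with a mean for each of 4 groups, a variance trend and Benjamini-Hochberg adjustment. P-values measure the spread between pools, and the number of arrays limits the precision. On simulated data, 53 and 94 of 100 changes of 1 and 2 log2 units were recovered for noise in 129X1/SvJ among 8695 probe sets, and 38 and 84 for noise in B6.CAST. For the difference of noise effects 15 and 63 were recovered, for the control strains 51 and 90 and for the noise-exposed strains 53 and 86. The simulated spread was independent between probe sets and was not normalised, so shifts shared by many genes of an array are not covered. All members were described. Of each further bone or osteoclast list, up to 4 genes per comparison with the smallest p were considered, of other lists those called. The brightest probe set stood for a gene. Members, lists and tests were chosen with earlier results of these data known. Replicate numbers did not pair the arrays. Alternatives were median scaling, pseudocounts of 1 and 64, no filter, no trend, array weights, a replicate block, the compared groups alone, and leaving out each array, both arrays of high Gapdh ratio, or 129X1/SvJ noise 1 with B6.CAST control 1.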

Additional observations from a re-analysis of the deposited data

How the results depend on the processing

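Of 500 values of the 5 tested genes under the alternatives, 462 kept their direction and their side of the threshold, 34 changed sign, 4 newly passed and 0 ceased to pass. The 4 were Ibsp between noise-exposed strains, where 1 member was called in place of 0 in the fit of the compared groups alone, without the doubted pair of arrays (the first noise array of 129X1/SvJ, which stood apart by its correlation, and the first control array of B6.CAST, which differed from its fellow in Ibsp and Acp5, a choice made after seeing the data), and without either B6.CAST control array, so that leaving out 1 array gave 0 to 1. Where the construction does not show it, the cause of a change was not tested.

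Counts of all probe sets called moved more. For noise in 129X1/SvJ (44) they were 71 with array weights, 22 without both arrays of high Gapdh ratio, 20 without the doubted pair, and 22 to 46 with 1 array left out. For noise in B6.CAST (4) they were 2 with a pseudocount of 1 or 64, 1 with no filter, 0 with no variance trend, 7 with array weights, 0 without the high Gapdh arrays, 0 in the compared groups alone, 1 without the doubted pair, and 0 to 5 with 1 array left out. For the strains in control mice (80) they were 139 with array weights, 36 without the high Gapdh arrays, 154 in the compared groups alone, 38 without the doubted pair, and 23 to 132 with 1 left out. For the strains in noise-exposed mice (126) they were 192, 26 and 53 under the first 3 of these, and 26 to 122 with 1 left out. With the replicate number as a block the counts were 2 for noise in B6.CAST, 34 for the control strains and 44 for the noise-exposed strains. Same-numbered arrays correlated at -0.389 to 0.1404 in their deviations, so the numbers were not taken as pairs, and a crossed block in B6.CAST gave 4 calls.

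Without the doubted pair, the member median was 0.09 for noise in B6.CAST and -0.15 between control strains. The values that changed sign there were Sparc at 0.03 for noise in 129X1/SvJ, Ibsp at 0.09, Ctsk at 0.25 and Acp5 at 0.47 for noise in B6.CAST, Ctsk at 0.32 and Acp5 at 0.26 for the difference of noise effects, Ctsk at -0.15, Alpl at 0.02 and Acp5 at -1.11 between control strains, and Alpl at 0.14 between noise-exposed strains. Ctsk was at 0.13 for noise in 129X1/SvJ without the high Gapdh arrays and at 0.12 for the difference of noise effects with median scaling. With array weights Acp5 was at -0.02 between control strains and Alpl at 0.11 between noise-exposed strains.

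With 1 array left out, the ranges that crossed 0 were, for noise in 129X1/SvJ, Ctsk -0.30 to 0.13 and Sparc -0.36 to 0.03. For noise in B6.CAST they were Ibsp -2.32 to 0.09, Ctsk -0.40 to 0.24, Alpl -0.49 to 0.02, Acp5 -1.93 to 0.47 and the median -0.40 to 0.09. For the difference of noise effects they were Ctsk -0.35 to 0.29, Alpl -0.11 to 0.39, Acp5 -2.28 to 0.12 and the median -0.35 to 0.20. Between control strains they were Ibsp -2.00 to 0.42, Ctsk -0.15 to 0.49, Alpl -0.48 to 0.02, Acp5 -1.09 to 1.31 and the median -0.15 to 0.42. Between noise-exposed strains Alpl ranged from -0.26 to 0.14. A lone B6.CAST array is assumed to vary like the other groups. The mean of a gene's probe sets was not run apart, since 1 Ibsp probe set passed the filter, and the compared groups alone are all groups for the difference of noise effects. Dim probe sets limit Phex and the second Ibsp probe set.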
